A study of Mus musculus with 4 samples.

Results

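Sertoli cells are the somatic cells of the seminiferous tubule. They start testis development under the transcription factors Sry and Sox9, secrete proteins into the tubule, form the blood-testis barrier through tight junctions with each other, and clear dying germ cells. The genes described here are 30 that mark Sertoli cells by identity or product: transcriptional regulators, a signalling ligand, secreted proteins, cytoskeletal proteins, barrier proteins and other products. They were listed by name and role, with earlier results of these arrays known, and 29 of the 30 had a probe set annotated to that gene alone, out of 12393 genes measured. Defb36, a defensin gene, was not named in the probe table used here. Where a gene had several probe sets, the set whose log2 signal averaged highest over the 4 arrays was used.

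Expression was measured on Affymetrix 430A arrays in 4 groups of adult male mouse tissue with 1 array each: XX/Sry whole testis, W/Wv whole testis, XX/Sry seminiferous tubules and W/Wv seminiferous tubules. XX/Sry males are chromosomally XX and owe their testes to a transgene of Sry; the labels name neither their strain nor the promoter of the transgene. W/Wv males carry mutant alleles of the receptor gene Kit and, per the labels, were purchased WB x B6 animals. Both kinds of testis are known to be nearly without germ cells, and the study set them side by side as recipients for spermatogenesis. Tubules were prepared by taking off the tunica, digesting with collagenase and straining off interstitial cells. The labels do not say how many animals went into an array, or whether both preparations came from the same animals. In whole tissue, fewer cells of a type and less RNA per cell cannot be told apart. No group had a replicate, so each fold below is a ratio of MAS5 signals between single arrays.

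The arrays matched their genotype labels on the Y-linked gene Eif2s3y (9.5 and 28.2 in XX/Sry whole testis and tubules, against 794.7 and 580.3 in W/Wv). They also matched on Xist, the X inactivation RNA (3099 and 1002 in XX/Sry, against 130.6 and 76.7 in W/Wv). Median signals lay between 156.8 and 182.8. The highest signal among bacterial control probe sets served as a background bound, from 46.1 to 76.3 per array, and 69.8% to 75.3% of probe sets exceeded it. Of the 29 Sertoli genes, 26 exceeded it on all 4 arrays; the exceptions were Krt8, Krt18 and Cxadr. The 18 hybridisation spike controls had median log2 ratios of -0.13 for XX/Sry over W/Wv in whole testis and -0.66 in tubules, so the W/Wv tubule array stood apart on them.

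**Figure D1:**
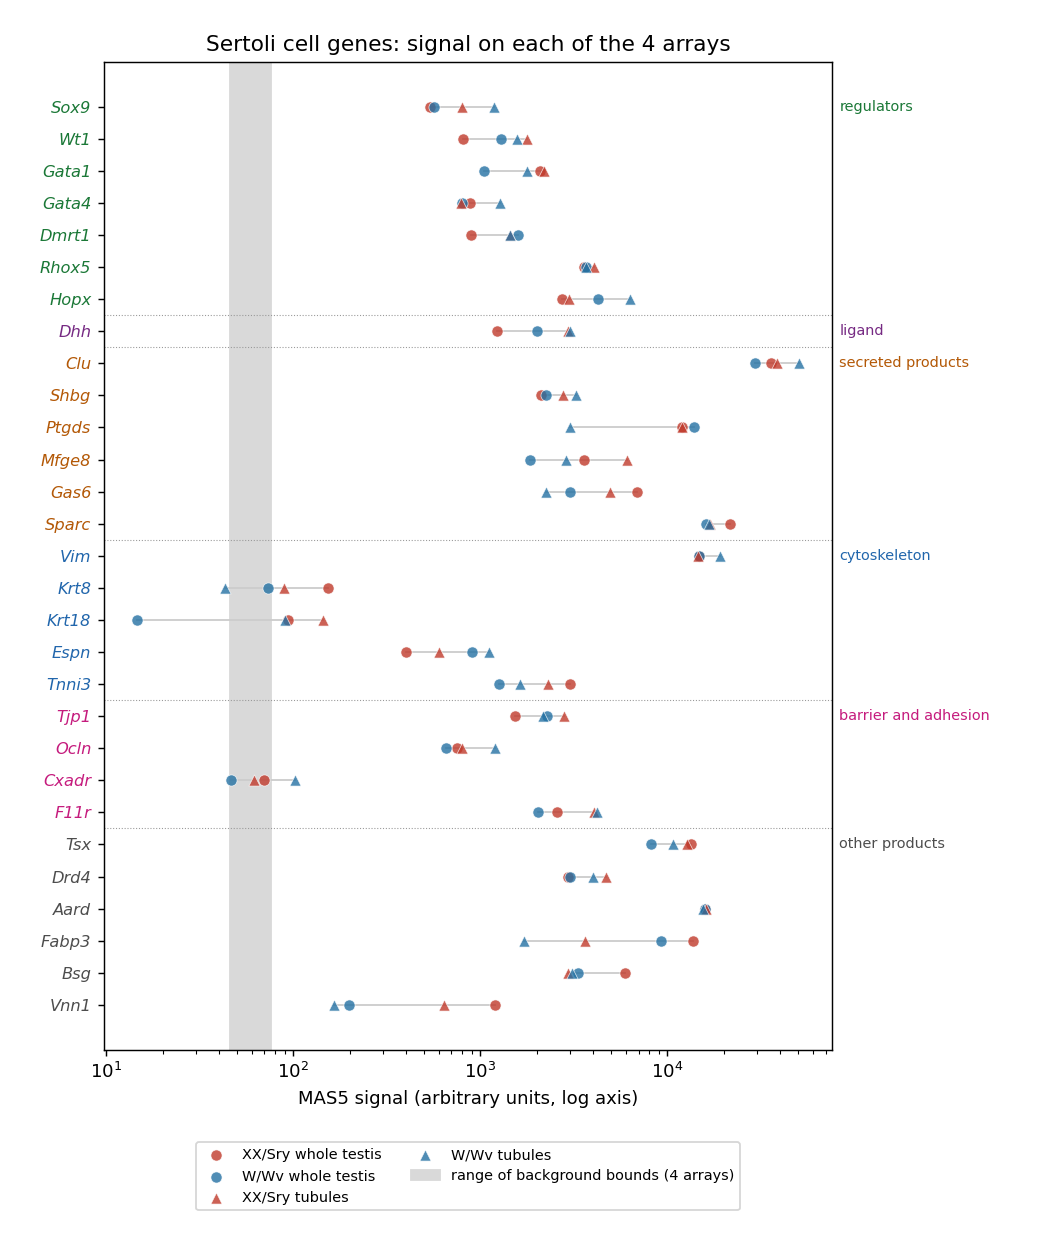
MAS5 signal (log axis, arbitrary units) of the 29 measured Sertoli genes on each of the 4 arrays, 1 array per group; genes are coloured and separated by role, and the grey band spans the background bounds of the arrays, 46.1 to 76.3. Aard and Rhox5 have nearly the same signal on all arrays, Vnn1 is high on both XX/Sry arrays, and Ptgds is low on the W/Wv tubule array alone.

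Between XX/Sry and W/Wv, 79.3% of the 29 Sertoli genes lay within 2-fold in whole testis and 75.9% in tubules, shares near those of all genes (78.5% and 78.4%). The design text calls a gene different when it is at least 2-fold apart the same way in both preparations. By that rule 3 of the 29 were higher in XX/Sry (Vnn1, Gas6 and Krt8), against 1.98% of all genes, and 0 were lower, against 3.22% of all genes. Among the 26 whose brighter array in each preparation reached its median signal, 2 were higher (Vnn1 and Gas6) and 0 lower, against 1.21% and 0.614% of such genes. The median log2 ratio of the 29 was 0.19 in whole testis and 0.04 in tubules, beside -0.10 and -0.0026 over all genes. In whole testis 17 of 29 had a ratio above 0 and in tubules 16 of 29, beside 43.5% and 49.8% of all genes. In single pairs, 5 of 29 were at least 2-fold higher in XX/Sry and 1 lower in whole testis, beside 8.1% and 13.4% of all genes, and 6 were higher and 1 lower in tubules, beside 11.2% and 10.3%. At 1.5-fold in both preparations 5 were higher and 2 lower (Hopx and Espn), beside 5.04% and 7.46% of all genes. An additive fit of genotype and preparation in limma takes disagreement between the preparations as its error and has 1 residual degree of freedom. It called 1 member higher (Vnn1) and 0 lower at an adjusted p under 0.05, beside 0.11% and 0.0398% of probe sets.

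**Figure D2:**
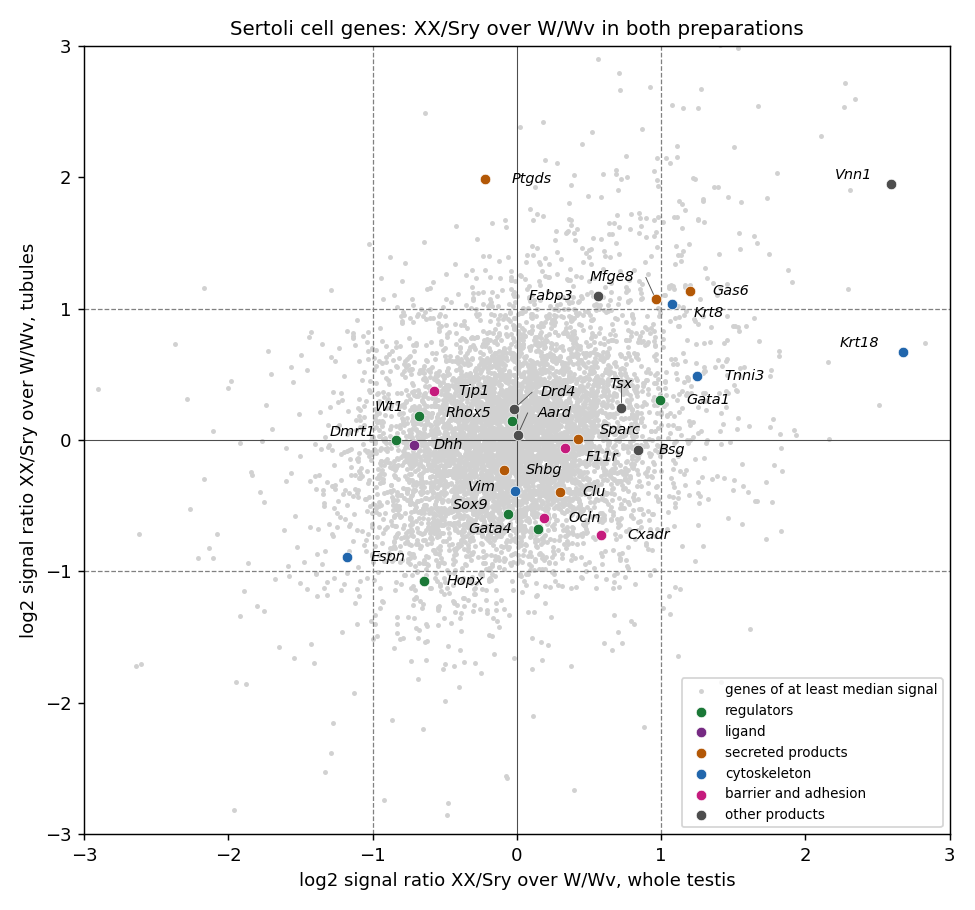
log2 signal ratio of XX/Sry over W/Wv in whole testis (horizontal) and in tubules (vertical); coloured points are the 29 Sertoli genes by role, grey points are genes whose brighter array reached its median signal, those beyond the axes not drawn, and dashed lines mark 2-fold. Vnn1 lies at 2.59 and 1.95, Gas6, Mfge8 and Krt8 lie near the 2-fold corner, Espn and Hopx lie lowest on both axes together, and Ptgds is high in tubules alone.

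Among the regulators 0 of 7 were higher and 0 of 7 lower by the rule, beside 1.98% and 3.22% of all genes. Sox9, which turns the early gonad towards Sertoli cell fate, had signals of 538.2 in XX/Sry and 562.9 in W/Wv whole testis, with tubule signals of 800.8 in XX/Sry and 1182.4 in W/Wv. It was thus 1.05-fold and 1.48-fold lower in XX/Sry, and its further probe set ran the same way (1.21-fold and 1.53-fold lower). Wt1, a zinc finger factor that maintains Sertoli identity, had 806.6 in XX/Sry and 1290.2 in W/Wv whole testis, while in tubules the signals were 1776.1 in XX/Sry and 1565.4 in W/Wv. The genotypes thus stood in opposite order in the 2 preparations, 1.60-fold lower and 1.13-fold higher in XX/Sry.

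Dmrt1, which keeps Sertoli cells from taking a granulosa fate and is also made by spermatogonia, had 885.2 in XX/Sry and 1581.6 in W/Wv whole testis. In tubules its signals were nearly equal, 1444.7 in XX/Sry and 1447.5 in W/Wv. All 6 measured markers of spermatogonia were lower in XX/Sry whole testis (median log2 ratio -1.87, summed signal 1342 against 3351 in W/Wv). Their tubule sums were 1562 in XX/Sry and 1667 in W/Wv, but the median log2 ratio there was -0.74, with 2 of 6 above 0. The part of these markers in the Dmrt1 ratio was not tested. Gata4, a zinc finger factor of Sertoli and Leydig cells, had 877.8 in XX/Sry and 794.5 in W/Wv whole testis, with tubule signals of 791.6 in XX/Sry and 1268 in W/Wv. It was 1.10-fold higher and 1.60-fold lower in XX/Sry, and its further probe set was 1.26-fold higher and 2.52-fold lower.

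Hopx, a homeodomain protein that does not bind DNA itself, was low in XX/Sry on both preparations, with 2737 in XX/Sry and 4269 in W/Wv whole testis, while in tubules the signals were 2985 in XX/Sry and 6274 in W/Wv. The folds were 1.56 and 2.10 lower, short of the rule in whole testis. A further Hopx probe set did pass, at 2.73-fold lower (whole testis) and 2.37-fold lower (tubules; 448 in XX/Sry against 1223.5 in W/Wv, and 434.4 in XX/Sry against 1028 in W/Wv). Both probe sets placed the 2 XX/Sry arrays below the 2 W/Wv arrays. In the limma fit Hopx had a mean log2 ratio of -0.86 (SE 0.26, adjusted p = 0.318).

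The regulators Gata1 and Rhox5 and the Sertoli-specific gene Tsx lie on the X chromosome, of which XX/Sry males have a further copy. Gata1, an erythroid factor that the testis makes in Sertoli cells, had 2074 in XX/Sry and 1041 in W/Wv whole testis, with tubule signals of 2195 in XX/Sry and 1779 in W/Wv. Its XX/Sry signals were higher by 1.99-fold and 1.23-fold, the first value just inside the 2-fold line. Tsx had 13416 in XX/Sry and 8133 in W/Wv whole testis, while in tubules the signals were 12696 in XX/Sry and 10695 in W/Wv, 1.65-fold and 1.19-fold higher. Rhox5, a homeobox gene that androgen drives in Sertoli cells, barely differed, with 3565 in XX/Sry and 3650 in W/Wv whole testis, with tubule signals of 4041 in XX/Sry and 3663 in W/Wv. The 218 X-linked genes of at least median signal had median log2 ratios of 0.14 and 0.18 in whole testis and tubules, beside -0.037 and -0.012 for 6616 autosomal genes. Over all 402 X-linked genes the medians were -0.035 and 0.14, beside -0.10 and -0.0066 for 11957 autosomal genes. The sign of the X-linked median in whole testis thus depended on which genes were counted, though it lay above the autosomal median either way.

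Dhh, the hedgehog ligand by which Sertoli cells signal to Leydig and peritubular cells, had 1222 in XX/Sry and 2005 in W/Wv whole testis, 1.64-fold lower in XX/Sry. In tubules it had 2947 in XX/Sry and 3027 in W/Wv, 1.03-fold lower. Its further probe set gave the reverse picture, with 208.1 in both whole testis arrays and 286.7 in XX/Sry against 613 in W/Wv tubules, so the 2 probe sets of Dhh did not place the difference in the same preparation.

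Among the secreted products, 1 of 6 was higher by the rule, Gas6, and 0 lower, beside 1.98% and 3.22% of all genes. Gas6, a ligand of the Tyro3, Axl and Mer receptors that bridges them to phosphatidylserine on dying cells, had 6888 in XX/Sry and 3000 in W/Wv whole testis, while in tubules the signals were 4940 in XX/Sry and 2245 in W/Wv. The 2 XX/Sry arrays lay above the 2 W/Wv arrays, and the folds were close, 2.30 and 2.20 higher. Leydig cell markers moved the same way: 5 of 5 measured were higher in XX/Sry in whole testis and 5 of 5 in tubules (median log2 ratios 0.63 and 1.34), with summed signals of 57785 in XX/Sry and 36461 in W/Wv whole testis, while tubules gave 21820 in XX/Sry and 9134 in W/Wv. Their part in the Gas6 ratio was not tested. Mfge8, which bridges phosphatidylserine to integrins, had 3578 in XX/Sry and 1836 in W/Wv whole testis, with tubule signals of 6041 in XX/Sry and 2875 in W/Wv. It was higher in XX/Sry by 1.95-fold and 2.10-fold and so just missed the rule in whole testis, though it passed when the arrays were centred on their medians. In the limma fit the mean log2 ratios were 1.17 for Gas6 (SE 0.25, adjusted p = 0.117) and 1.02 for Mfge8 (SE 0.24, adjusted p = 0.182).

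The promoters of Gas6 and Mfge8 are shown because both genes were near or past 2-fold higher in XX/Sry in each preparation, although between preparations they ran opposite ways. Those of Ptgds and Fabp3 are shown because these members had the lowest ratios of tubules over whole testis in W/Wv. Each is the stretch of 250 bases before the annotated start, written 5′ to 3′ on the gene's strand, from RefSeq on GRCm38.p6: Gas6 at chr8:13494536-13494785 (minus strand), Mfge8 at chr7:79149061-79149310 (minus), Ptgds at chr2:25469750-25469999 (minus) and Fabp3 at chr4:130308488-130308737 (plus). Capitals mark GGGCGG, the core of a GC box, on either strand.
Gas6: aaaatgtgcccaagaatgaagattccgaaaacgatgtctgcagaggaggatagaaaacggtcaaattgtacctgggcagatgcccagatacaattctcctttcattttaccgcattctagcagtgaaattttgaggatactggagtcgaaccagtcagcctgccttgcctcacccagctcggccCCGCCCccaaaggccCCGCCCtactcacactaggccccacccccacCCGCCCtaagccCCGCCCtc
Mfge8: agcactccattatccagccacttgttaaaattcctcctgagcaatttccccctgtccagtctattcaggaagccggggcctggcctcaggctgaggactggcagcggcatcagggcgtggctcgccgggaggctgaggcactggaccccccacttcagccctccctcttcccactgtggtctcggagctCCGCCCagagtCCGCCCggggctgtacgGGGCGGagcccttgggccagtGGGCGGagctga
Ptgds: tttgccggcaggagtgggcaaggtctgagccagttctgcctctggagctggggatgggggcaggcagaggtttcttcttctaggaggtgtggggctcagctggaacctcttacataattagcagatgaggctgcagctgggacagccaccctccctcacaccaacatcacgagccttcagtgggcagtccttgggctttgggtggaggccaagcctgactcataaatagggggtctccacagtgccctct
Fabp3: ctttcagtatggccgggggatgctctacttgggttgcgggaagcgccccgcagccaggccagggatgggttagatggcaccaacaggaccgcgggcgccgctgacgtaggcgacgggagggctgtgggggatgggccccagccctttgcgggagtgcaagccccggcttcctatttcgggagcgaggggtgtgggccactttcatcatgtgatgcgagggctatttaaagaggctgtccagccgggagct

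GGGCGG occurred 4 times in each of the Gas6 and Mfge8 stretches, and 0 times in those of Ptgds and Fabp3. It was present in 10 of the 21 listed Sertoli genes with a promoter entry and in 32.9% of 27025 promoters of the same length. Other sequences searched on both strands were the SOX cores ACAAAG and AACAAT, the GATA cores AGATAA and TGATAA, the Nr5a1 core AAGGTCA and the TATA box TATAAA, none of which these 4 stretches hold. They were found in 2, 1, 2, 2, 0 and 2 of the 21, and in 16.5%, 9.65%, 10.3%, 8.16%, 4.05% and 13.0% of all promoters. A match of letters is a description of the sequence only, and the 4 genes are not groups set up to compare it: Fabp3 was also higher in XX/Sry in both preparations.

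Ptgds, which makes prostaglandin D2 and is a target of Sox9 in the fetal mouse testis, had 11904 in XX/Sry and 13900 in W/Wv whole testis, while in tubules the signals were 12010 in XX/Sry and 3026 in W/Wv. Only the W/Wv tubule array was low, so XX/Sry whole testis was 1.17-fold lower and XX/Sry tubules 3.97-fold higher. A further probe set showed the same pattern, with 6035 in XX/Sry and 6399 in W/Wv whole testis, with tubule signals of 4602 in XX/Sry and 1386 in W/Wv. The Leydig markers given beside Gas6 were higher in XX/Sry tubules too, but also in XX/Sry whole testis, where Ptgds was not. Rete testis and efferent duct genes had median log2 ratios by genotype of -0.18 in whole testis (2 of 6 above 0) and 1.33 in tubules (5 of 6). Only 2 of these 6 exceeded the bound on the W/Wv tubule array. The part of either list in the Ptgds ratio was not tested.

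The remaining secreted products differed little by genotype. Clu, a secreted chaperone that Sertoli cells make in bulk, had 35925 in XX/Sry and 29276 in W/Wv whole testis, while in tubules the signals were 38329 in XX/Sry and 50416 in W/Wv, 1.23-fold higher and 1.32-fold lower. Of its 3 further probe sets, 1 was higher and 2 were lower in XX/Sry whole testis (ratios 1.16, 0.93 and 0.95), and all 3 were lower in XX/Sry tubules. Its signals ranked 1 among all probe sets on 3 arrays and 4 on W/Wv whole testis, and the labels do not say whether any was saturated. Shbg, the androgen-binding protein of rodent Sertoli cells, had 2110 in XX/Sry and 2247 in W/Wv whole testis, with tubule signals of 2759 in XX/Sry and 3226 in W/Wv. Sparc, a matrix-associated glycoprotein made by several testis cell types, had 21569 in XX/Sry and 16123 in W/Wv whole testis, while in tubules the signals were 16808 in XX/Sry and 16678 in W/Wv. A further Sparc probe set went the other way in whole testis (10619 in XX/Sry and 15436 in W/Wv), so no direction holds for Sparc there.

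The cytoskeletal genes ran in different directions. Espn, an actin-bundling protein of the ectoplasmic specialisation that holds spermatids, was low in XX/Sry, with 400.6 in XX/Sry and 906.1 in W/Wv whole testis, with tubule signals of 597.4 in XX/Sry and 1107 in W/Wv. Both XX/Sry arrays lay below both W/Wv arrays, at 2.26-fold and 1.85-fold lower, short of the rule in tubules (mean log2 ratio -1.03, SE 0.27, limma adjusted p = 0.226). Tnni3, known as cardiac troponin I, had 2998 in XX/Sry and 1264 in W/Wv whole testis, while in tubules the signals were 2288 in XX/Sry and 1633 in W/Wv. Its XX/Sry signals were higher by 2.37-fold and 1.40-fold. Vim, the intermediate filament protein of adult Sertoli cells, had 14657 in XX/Sry and 14785 in W/Wv whole testis, with tubule signals of 14595 in XX/Sry and 19143 in W/Wv.

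Krt8 and Krt18, the keratin pair of immature Sertoli cells, lay near background. Krt8 had 153.7 in XX/Sry and 72.8 in W/Wv whole testis, while in tubules the signals were 88.6 in XX/Sry and 43.3 in W/Wv, both W/Wv signals being below their bounds. It was therefore at least 2.01-fold and at least 1.45-fold higher in XX/Sry, and 2-fold in both preparations is not established against the bound. Of its 2 further probe sets, both were lower in XX/Sry whole testis (1.24-fold and 1.38-fold by the signals as given), with 3 and 1 arrays above the bound. Krt18 had 93.2 in XX/Sry and 14.6 in W/Wv whole testis, at least 1.22-fold higher, and tubules gave 144.1 in XX/Sry and 90.4 in W/Wv, 1.59-fold higher.

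Among the 4 barrier genes 0 passed the rule, beside 1.98% of all genes higher and 3.22% lower. By the signals as given the genotype ratio of each had opposite signs in the 2 preparations. Over all genes the signs were the same in 6725 of 12393, so opposite signs were common. Tjp1, the tight junction scaffold ZO-1, had 1528 in XX/Sry and 2279 in W/Wv whole testis, while in tubules the signals were 2787 in XX/Sry and 2152 in W/Wv, 1.49-fold lower and 1.30-fold higher. Ocln, the tight junction membrane protein occludin, had 746.1 in XX/Sry and 655.4 in W/Wv whole testis, with tubule signals of 794.1 in XX/Sry and 1199 in W/Wv, 1.14-fold higher and 1.51-fold lower. F11r, a junctional adhesion molecule, had 2559 in XX/Sry and 2029 in W/Wv whole testis, while in tubules the signals were 4024 in XX/Sry and 4201 in W/Wv, 1.26-fold higher and 1.04-fold lower. Its further probe set was lower in XX/Sry in both preparations (log2 ratios -0.16 and -0.21). Among Tjp1, Ocln and F11r the largest of these ratios, for Ocln in tubules, was 1.51-fold. Cxadr, a receptor and adhesion molecule of the junctions, had 69.8 in XX/Sry and 46.6 in W/Wv whole testis, the second below the bound. Its tubule signals were 61.4 in XX/Sry and 101.5 in W/Wv, 1.65-fold lower in XX/Sry. Since neither whole testis signal exceeded the higher of the 2 bounds, no fold is given there. Its 4 probe sets gave ratios of either sign, and none lay above the bound on all arrays.

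Among the other products, Vnn1 differed most by genotype. Vnn1 encodes the pantetheinase vanin-1, which releases cysteamine and is a Sox9 target in mouse Sertoli cells. It had 1190.5 in XX/Sry and 197.7 in W/Wv whole testis, while in tubules the signals were 636.7 in XX/Sry and 165 in W/Wv. All 4 signals exceeded the bounds, the 2 XX/Sry arrays lay above the 2 W/Wv arrays, and the folds were 6.02 and 3.86 higher. In the limma fit its mean log2 ratio was 2.27 (SE 0.32, adjusted p = 0.0233 over 22626 probe sets). The Leydig markers were higher in XX/Sry in both preparations as well, and their part in the Vnn1 ratio was not tested.

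Aard, a gene of unknown biochemical role named for its alanine- and arginine-rich domain, was the steadiest member, with 15836 in XX/Sry and 15783 in W/Wv whole testis, with tubule signals of 16010 in XX/Sry and 15572 in W/Wv. Aard ranked 49 and 63 among all probe sets on XX/Sry and W/Wv whole testis, and 30 and 50 on XX/Sry and W/Wv tubules. The labels do not say whether any of these signals was saturated. The highest Aard array was 1.03-fold its lowest. Median spreads were 1.71 over 6652 genes of at least median signal and 2.05 over the 26 members above the bound on all arrays. Rhox5 came next at 1.13-fold. Drd4, a dopamine receptor gene used as a Sertoli marker, had 2955 in XX/Sry and 3003 in W/Wv whole testis, while in tubules the signals were 4711 in XX/Sry and 3999 in W/Wv. A further Drd4 probe set went the other way in tubules (783.6 in XX/Sry and 1141 in W/Wv).

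Bsg, the glycoprotein basigin that escorts lactate transporters to the membrane of Sertoli and germ cells, had 5941 in XX/Sry and 3315 in W/Wv whole testis, with tubule signals of 2930 in XX/Sry and 3091 in W/Wv. It was 1.79-fold higher and 1.05-fold lower. Fabp3, the heart-type fatty acid carrier, had 13644 in XX/Sry and 9245 in W/Wv whole testis, while in tubules the signals were 3639 in XX/Sry and 1705 in W/Wv, higher in XX/Sry by 1.48-fold and 2.13-fold. On both genotypes its tubule signal was far below its whole testis signal, as described next.

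Probe sets of the same gene served as a check within the arrays. Of the 29 genes, 12 had several probe sets, 18 further ones in all. Both Ptgds and both Sox9 probe sets ran together, as did those of Hopx, Gata4 and Vim in direction. Those of Sparc, Dhh, Drd4, Krt8, Cxadr, F11r and, in whole testis, Clu did not give the same account.

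**Figure D3:**
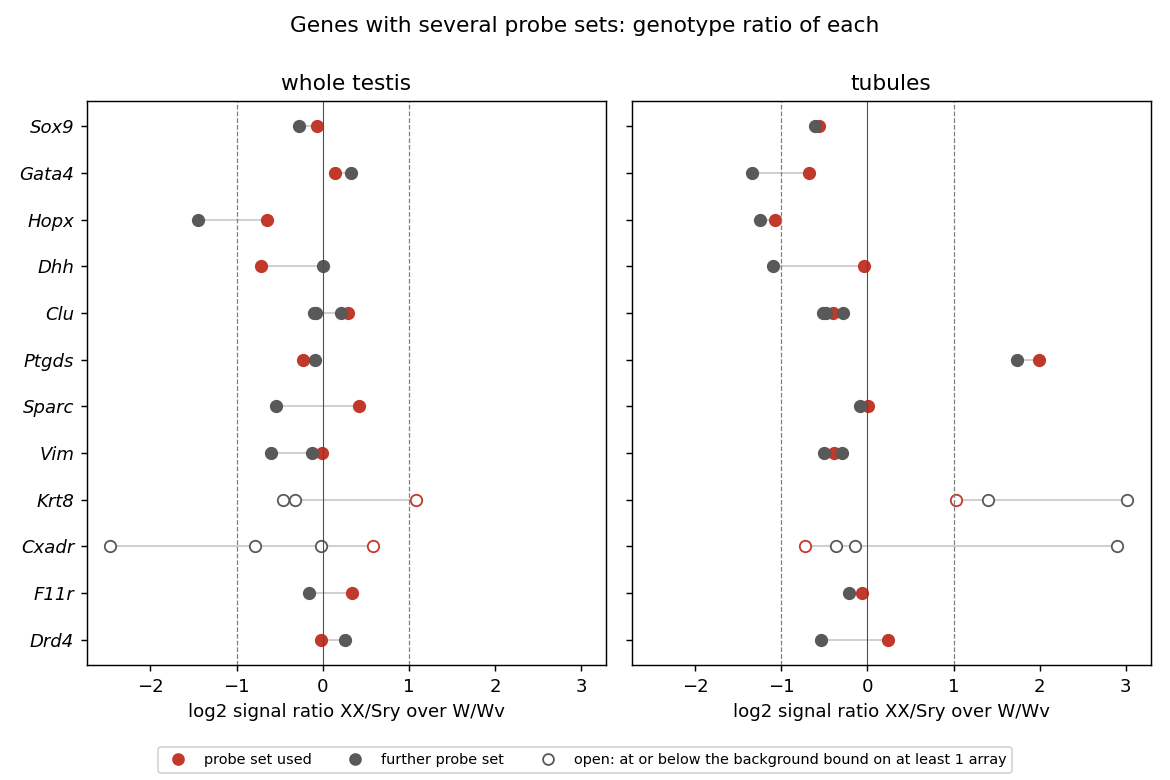
log2 signal ratio of XX/Sry over W/Wv for each probe set of the 12 Sertoli genes that have several, in whole testis (left panel) and tubules (right panel); red marks the probe set used, grey the further ones, open circles a probe set at or below the background bound on at least 1 array, and dashed lines 2-fold. The Ptgds probe sets lie at 1.99 and 1.73 in tubules and at -0.22 and -0.08 in whole testis, and the widest spread is in Krt8 and Cxadr.

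The other comparison set tubules against whole testis within each genotype. Here 1 of 29 Sertoli genes, Fabp3, was lower by 2-fold in both genotypes, against 5.74% of all genes, and 0 were higher, against 1.32%. Among genes of at least median signal the shares were 3.42% lower and 0.797% higher, with 1 and 0 of 26 members. The median log2 ratio of the 29 was 0.37 in W/Wv and 0.09 in XX/Sry, beside -0.15 and -0.02 over all genes. In W/Wv 20 of 29 had a ratio above 0 and in XX/Sry 18 of 29, beside 41.5% and 48.9% of all genes. Within W/Wv alone 4 of 29 were at least 2-fold higher in tubules and 2 lower, beside 7.7% and 18.3% of all genes, and within XX/Sry 2 were higher and 2 lower, beside 9.23% and 14.1%. At 1.5-fold in both genotypes 4 were higher (Dhh, Mfge8, Krt18 and F11r) and 2 lower (Krt8 and Fabp3) by the signals as given, beside 5.03% and 12.1%. Against the bounds, Krt18 was at least 1.18-fold higher within W/Wv, and Krt8 has no fold there because both its signals were below them. The spike controls had a median log2 ratio of 0.56 within W/Wv and -0.0042 within XX/Sry, and their part in the W/Wv median was not tested. By the limma fit 1 member was lower (Fabp3) and 0 higher at an adjusted p under 0.05, beside 0.977% and 0.239% of probe sets.

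**Figure D4:**
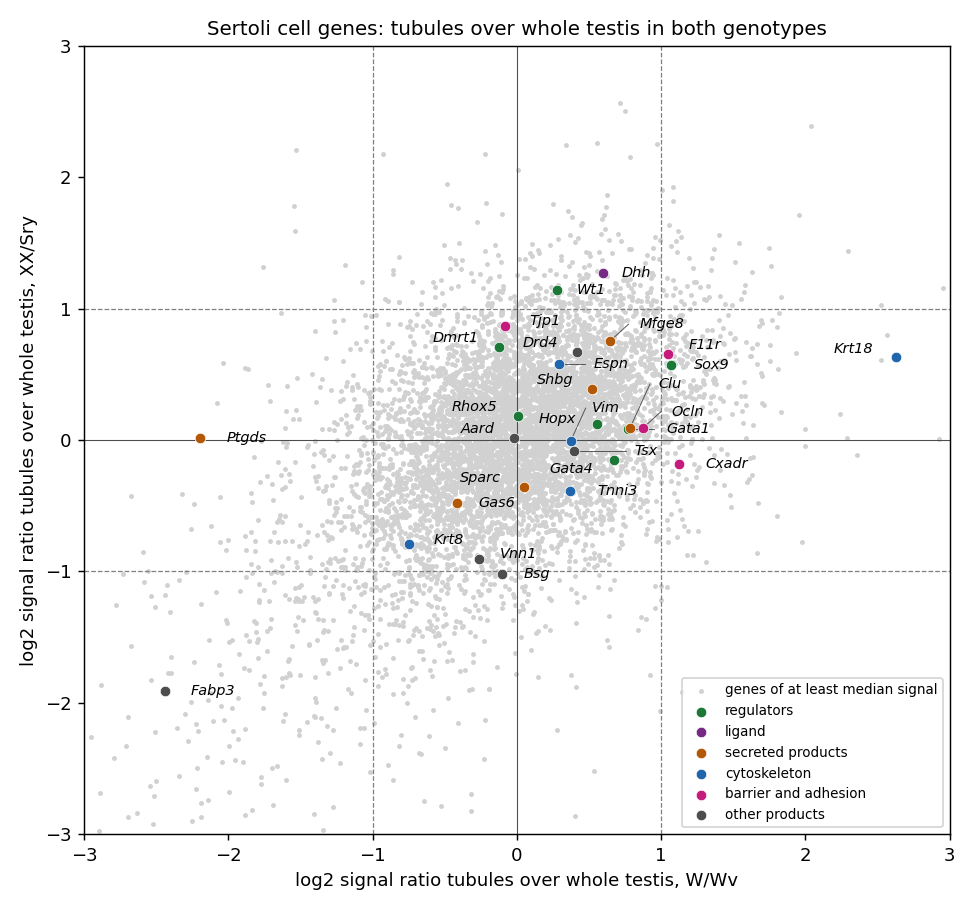
log2 signal ratio of tubules over whole testis in W/Wv (horizontal) and XX/Sry (vertical); coloured points are the 29 Sertoli genes by role, grey points are genes whose brighter array reached its median signal, those beyond the axes not drawn, and dashed lines mark 2-fold. Fabp3 lies at -2.44 and -1.91, Ptgds at -2.20 and 0.01, and most regulators lie to the right of 0.

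Fabp3 had 1705 in tubules and 9245 in whole testis of W/Wv, and 3639 in tubules and 13644 in whole testis of XX/Sry. It was 5.42-fold and 3.75-fold lower in tubules (mean log2 ratio -2.17, SE 0.27, limma adjusted p = 0.00366). The Leydig markers were also lower in tubules, with median log2 ratios of -2.35 within W/Wv and -1.77 within XX/Sry, 5 of 5 measured genes being lower in both. All 8 macrophage markers were lower in both as well (medians -1.69 and -2.74). Their part in the Fabp3 ratio was not tested. Ptgds was 4.59-fold lower in tubules of W/Wv (3026 against 13900 in whole testis) and 1.01-fold higher in tubules of XX/Sry (12010 against 11904).

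Of the 7 regulators, 6 had a ratio above 0 in W/Wv and 6 in XX/Sry, beside 41.5% and 48.9% of all genes, and 0 reached 2-fold in both, beside 1.32%. Sox9 was 2.10-fold higher in tubules in W/Wv and 1.49-fold in XX/Sry, and Wt1 1.21-fold and 2.20-fold. Dhh was 1.51-fold and 2.41-fold higher in tubules, Mfge8 1.57-fold and 1.69-fold, and F11r 2.07-fold and 1.57-fold. The further F11r probe set ran the other way (log2 ratios -0.34 and -0.39), and with the mean of both the F11r log2 ratios were 0.36 and 0.13. Gas6 ran the other way, 1.34-fold lower in tubules of W/Wv and 1.39-fold lower in those of XX/Sry, as did Vnn1 (1.20-fold and 1.87-fold lower). By the signals as given Vnn1 and Gas6, the members at least 2-fold higher in XX/Sry above the bound, were both lower in tubules in each genotype. Within W/Wv this depended on scaling for Vnn1, whose log2 ratio of -0.26 became -0.04 with median centring and -0.07 with quantile normalisation. That of Gas6, -0.42, became -0.20 and -0.47. The median over all genes in that pair was -0.15.

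Further Sertoli genes were read from a separate list of 24, of which 19 were measured. By genotype 0 of 19 were higher and 0 lower by the 2-fold rule, beside 1.98% and 3.22% of all genes, and the median log2 ratio was 0.18 for whole testis and -0.30 for tubules. Inha, the inhibin alpha subunit, had 14898 in XX/Sry and 13040 in W/Wv whole testis, with tubule signals of 16363 in XX/Sry and 17427 in W/Wv. Cst12, Cst9 and Ctsl, genes of the cystatin and cathepsin systems, were also within 1.5-fold by genotype in both preparations (log2 ratios -0.44 and -0.24, 0.38 and 0.26, and -0.03 and -0.37). Cldn3, a claudin that androgen raises in Sertoli cells, had opposite ratios, with 645.7 in XX/Sry and 350.9 in W/Wv whole testis, while in tubules the signals were 170.7 in XX/Sry and 776.9 in W/Wv. It belongs to a list of 6 genes that need androgen signalling in mouse Sertoli cells, with Rhox5, Drd4, Eppin, Tubb3 and Serpina5; 0 of these 6 passed the genotype rule in either direction, beside the same shares. Between preparations 2 of the 19 were higher in tubules and 0 lower, beside 1.32% and 5.74% of all genes: Cdh2, the cadherin of Sertoli contacts (log2 ratios 1.08 within W/Wv and 1.82 within XX/Sry), and Nr0b1, a nuclear receptor (1.10 and 1.01). In W/Wv 19 of 19 had a tubule ratio above 0, and in XX/Sry 12 of 19, beside 41.5% and 48.9% of all genes.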

How the data were processed

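Signals of 4 arrays were analysed. The deposited values are array intensity, MAS5 signals on a linear scale; MAS5 is named in the submitters' processing notes, and Microarray Suite 5.0 in the design text of the labels. Each array's mean without the lowest and highest 2% was near 500.2, so arrays had been scaled; the labels give neither the target nor detection calls. Value columns left unused numbered 0.

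The table held 22690 probe sets, 64 of them controls that were left out. GEO's platform annotation gave 1 symbol to 20380, several to 691 and none to 1555; 20351 matched RefSeq, changing 0 symbols. Signals were compared as log2 values, and no gene was filtered out. All 30 members are described; genes of companion lists are named where they pass 2-fold in both pairs, or among up to 4 others by signal; Cldn3 was chosen after its values were seen. The bound is the highest of 27 bacterial controls per array. A fold with a dimmer signal under its bound divides the brighter signal by whichever of the 2 bounds was higher, and is given as at least.

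The additive fit used limma 3.58.1 in R 4.3.3 (moderated, trended, two-sided, Benjamini-Hochberg over 22626 probe sets, 9.98 prior degrees of freedom). It assumes independent arrays and treats interaction as error. Tested on simulated data, it recovered changes but made more false calls than its nominal rate, so its adjusted p-values are approximate. The members, lists and alternatives were chosen with earlier results of these data known.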

Additional observations from a re-analysis of the deposited data

Results flagged for a closer look

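The 5 Sertoli genes below stood out because the genotype or preparation ratio differed between arrays, without a test, since each group had 1 array. For Ptgds the log2 ratio of XX/Sry over W/Wv was 2.21 higher in tubules than in whole testis, over 4-fold, and for Krt18 the difference was -2.0 by the signals as given. The W/Wv whole testis signal of Krt18 was below background: against the bound XX/Sry was at least 1.22-fold higher in whole testis and 1.59-fold higher in tubules, so neither the size nor the direction of that difference is set. For Tjp1 (difference 0.95) XX/Sry and W/Wv stood in opposite order in tubules and whole testis. For Cxadr (-1.31) they did so by the signals as given. Neither of its whole testis signals exceeded the higher of the 2 bounds, so its order there is not set. Tnni3 was lower in tubules than in whole testis of XX/Sry and higher in those of W/Wv, with a difference of -0.76 between the log2 ratios. None of these differences was tested.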

How the results depend on the processing

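The alternatives were median centring, quantile normalisation, an offset of 61.8 added to all signals, a filter at the background bound, the mean of all probe sets, the probe set highest in W/Wv whole testis, a 1.5-fold threshold and the limma fit. Vnn1 and Gas6 stayed at least 2-fold higher in XX/Sry in both preparations under each alternative scaling and the offset. The filter and both probe set rules could not change them, since each has 1 probe set, above the bound on all arrays. Krt8, with 3 probe sets, was lost with quantile normalisation, the offset and both probe set rules. Mfge8 was gained with median centring. At 1.5-fold, 5 genes were higher in XX/Sry (5.04% of all genes) and 2 lower (7.46%), Hopx and Espn; 4 were higher in tubules (5.03%) and 2 lower (12.1%). The limma fit called 1 gene higher in XX/Sry, and the mean of all probe sets made 1 gene, Hopx, lower. The median log2 ratio by genotype in whole testis became -0.013 with the probe set highest in W/Wv whole testis, and that of tubules over whole testis in W/Wv became 0.59 with median centring. Of 580 single-gene values under the scaling, offset and probe set alternatives, 478 both kept their side of 2-fold and moved by under 0.15 on the log2 scale, 77 moved by more, among them ratios inside 2-fold that turned sign, 12 went inside 2-fold, 10 went past it in the same direction, and 3 that had been past 2-fold reversed: Krt8 by genotype in whole testis (-0.32 with the probe set highest in W/Wv whole testis) and Cxadr between preparations in W/Wv (-0.43 with the mean of probe sets, -0.53 with the probe set highest in W/Wv whole testis); these are different probe sets near background. Of the 29 genes, 17 have 1 probe set, so for them both probe set rules return the main value by construction. The 478 thus include values that could not move. No paired analysis was possible because each group had 1 array and the labels carry no replicate numbers. No array could be left out, for the same reason. Signals near the bound limit Krt8, Krt18 and Cxadr.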

Other observations

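Markers of cells that share genes with Sertoli cells were read on the same arrays. The list counts below stand beside these shares of all genes by the 2-fold rule. By genotype 1.98% were higher and 3.22% lower in XX/Sry, and between preparations 1.32% were higher and 5.74% lower in tubules. Of 10 granulosa genes, 8 were measured, and none of the 4 arrays had more than 4 of them above its background bound. By genotype 0 of 8 were higher in XX/Sry by the 2-fold rule and 1 was lower by signals as given, Bmp2, which lay below the bound on all arrays. Rspo1 was the 1 of 8 lower in tubules by the signals as given. Against the bounds it was at least 1.83-fold lower within W/Wv and at least 1.72-fold lower within XX/Sry. Wnt4, a ligand of ovarian development, had 12.3 in XX/Sry and 238.9 in W/Wv whole testis, while tubules gave 228.9 in XX/Sry and 207.9 in W/Wv. Of the 6 rete testis and efferent duct genes, 0 passed by genotype; Lcn2, the secreted iron-binding protein lipocalin-2, had 12534 in XX/Sry and 8015 in W/Wv whole testis, while tubules gave 6424 in XX/Sry and 2783 in W/Wv. Of the 6 peritubular myoid genes 0 passed in either comparison, and Emcn was the 1 of 6 endothelial genes that passed by genotype, higher in XX/Sry with log2 ratios of 1.36 and 1.20. Pecam1 was the 1 of 6 endothelial genes higher in tubules, by the signals as given. Against the bounds Pecam1 was at least 1.67-fold higher within W/Wv and at least 1.30-fold higher within XX/Sry.

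Meiotic and later germ cell markers were at their highest in W/Wv whole testis, with a summed signal of 4142, against 421.6 in XX/Sry whole testis, 443.9 in XX/Sry tubules and 274 in W/Wv tubules. Of the 6 spermatogonial genes 3 were lower in XX/Sry by the 2-fold rule on the signals as given (Ddx4, Sall4 and Stra8), beside 3.22% of all genes. On those signals 1, Stra8, was lower in tubules, though both its XX/Sry signals were below their bounds. Of the 8 meiotic and later genes 1, Odf1 of the sperm tail, was lower in XX/Sry by the signals as given, with 63.5 in XX/Sry and 188.2 in W/Wv whole testis, while tubules gave 22.3 in XX/Sry and 46.2 in W/Wv. Odf1 was also the 1 of 8 lower in tubules by the signals as given, though both its XX/Sry signals were below their bounds.

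Of the 5 measured Leydig genes, 1 passed by genotype, Hsd17b3, higher in XX/Sry with log2 ratios of 1.01 and 1.66. All 5 were lower in tubules in both genotypes (Cyp11a1, Cyp17a1, Hsd3b1, Hsd17b3 and Star), beside 5.74% of all genes, as were all 8 macrophage genes (C1qa, C1qb, C1qc, Csf1r, Adgre1, Cd68, Cd163 and Lyz2). Cd163 passed by the signals as given: against the bounds it was at least 1.996-fold lower within W/Wv and at least 1.93-fold lower within XX/Sry. Neither list was at background in tubules, where 5 Leydig and 7 macrophage genes exceeded the bound on each array.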
